A study of Mus musculus with 8 samples.

Results

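RNA of hematopoietic stem cells from mice labelled null for Scribble, Yap1 and Taz together was compared with that of wild-type stem cells, 2 libraries against 2. A gene entered the comparison when its level was at least 1 TPM (a share of the library's transcripts, corrected for their length) in at least 2 of these 4 libraries, which 14815 of the 33641 listed symbols met. Of those, 37 immunoglobulin or T cell receptor segments, 248 symbols carrying -ps, 1607 symbols of the Gm-number form and 301 others that the annotation does not give as protein-coding were set aside, leaving 12622 protein-coding genes. Among these, 11569 reached 1 TPM in all 4 libraries, 184 entered through the triple null libraries alone and 80 through the wild-type libraries alone. Zfp300 lay just inside the level rule, with a second-highest value of 1.00 TPM, and Hoxc4 just outside it, with 0.999 TPM.

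All 4 genotypes of the study were C57BL/6 mice carrying the Mx1-Cre transgene. The Mx1 promoter responds to interferon. All mice, wild type included, received 6 intraperitoneal injections of polyI:C (a double-stranded RNA analog that induces interferon) at 10 mg/kg on alternate days. Bone marrow stem cells, named SLAM in the authors' files after the surface receptors used to sort them, were collected 1 week after induction. The genotypes were wild type, Scribble null (ScribbleΔ/Δ), Yap1 Taz null (TazΔ/Δ;Yap1Δ/Δ) and triple null (ScribbleΔ/Δ;TazΔ/Δ;Yap1Δ/Δ), with 2 libraries each. The labels call the libraries experimental replicates and do not tie them to separate animals. The p-values therefore measure no more than library-to-library spread, some of which may be technical. Mx1-Cre also acts in interferon-responding cells other than stem cells, so the deletion was not limited to the sorted population.

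Scribble is a scaffold protein that sets the polarity of cells together with the Dlg and Llgl proteins. Yap1 and TAZ are the transcriptional coactivators at the end of the Hippo kinase cascade: when Lats kinases do not retain them in the cytoplasm they enter the nucleus and bind TEAD factors on DNA. Hematopoietic stem cells are largely quiescent, self-renewing cells that also respond to interferon, which induces antiviral GTPases and the major histocompatibility complex (MHC) genes.

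The libraries resembled each other in breadth, with 14024 to 14970 genes at 1 TPM or more in each. Pearson's r of log2(TPM + 1) across genes was 0.965 between the 2 triple null libraries and 0.963 between the 2 wild-type libraries. TPM values keep no read depth, so the sequencing depth behind them is unknown. Of the targeted genes, Scrib measured 8.19 and 9.29 TPM in wild type against 14.5 and 7.54 TPM in triple null, and Yap1 2.00 and 2.15 against 2.25 and 2.37 TPM. Wwtr1 (the gene of the coactivator TAZ) measured 0.730 and 1.19 against 1.92 and 0.775 TPM. The symbol Taz of the tables denotes tafazzin, an unrelated gene. None of the targeted genes was lower in the libraries labelled triple null: limma gave log2 differences of 0.24, 0.11 and 0.23, with adjusted p of 0.828, 0.965 and 0.866. Whole-gene values would not reveal a deletion of single exons, so this check of the labels is of limited use.

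In the libraries labelled triple null, 52 of the 12622 protein-coding genes passed the test against wild type in limma (0.412%, at adjusted p under 0.05). Of these, 21 were higher (0.166%) and 31 lower (0.246%). Over all 16064 genes fitted, pseudogenes included, 93 passed (0.579%), 36 higher (0.224%) and 57 lower (0.355%). Before adjustment, 1425 protein-coding genes had a p under 0.05. The 2 triple null values lay outside the 2 wild-type values in each of the 52, as they did in 46.8% of all protein-coding genes and 45.1% of all genes tested. The genes that fell included the MHC class II chains H2-Aa and H2-Ab1 with their chaperone Cd74, 4 interferon-induced GTPases, the platelet chemokine Pf4 and the YAP target Cyr61. Those that rose included Adam11, Slc28a2, Pbx4, Sult1a1 and H2-T23. The median log2 difference over all genes tested was 0.12 rather than 0. Scaling each library by its median ratio moved it to -0.01, and the split of the protein-coding genes to 11 higher and 39 lower. The tests and the counts of positive and negative differences are taken about 0, with the shift of 0.12 not removed. List medians are therefore given beside it. Of all protein-coding genes, 64.2% had a positive difference. Leaving out 1 of the 4 compared libraries left 13 to 19 protein-coding genes past the test: 14 without wild type 1, 19 without wild type 2, 13 without triple null 1 and 13 without triple null 2. Without Yap1 Taz null 1 or Yap1 Taz null 2, which enter only the estimate of the spread, it was 31. The calls of 10 genes held whichever of the 8 libraries was left out, among them Eno1b, Gbp2b, H2-Aa, H2-Ab1, H2-Q2, H2-T23, Pf4, Rpl29 and Rps3a1.

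**Figure D1:**
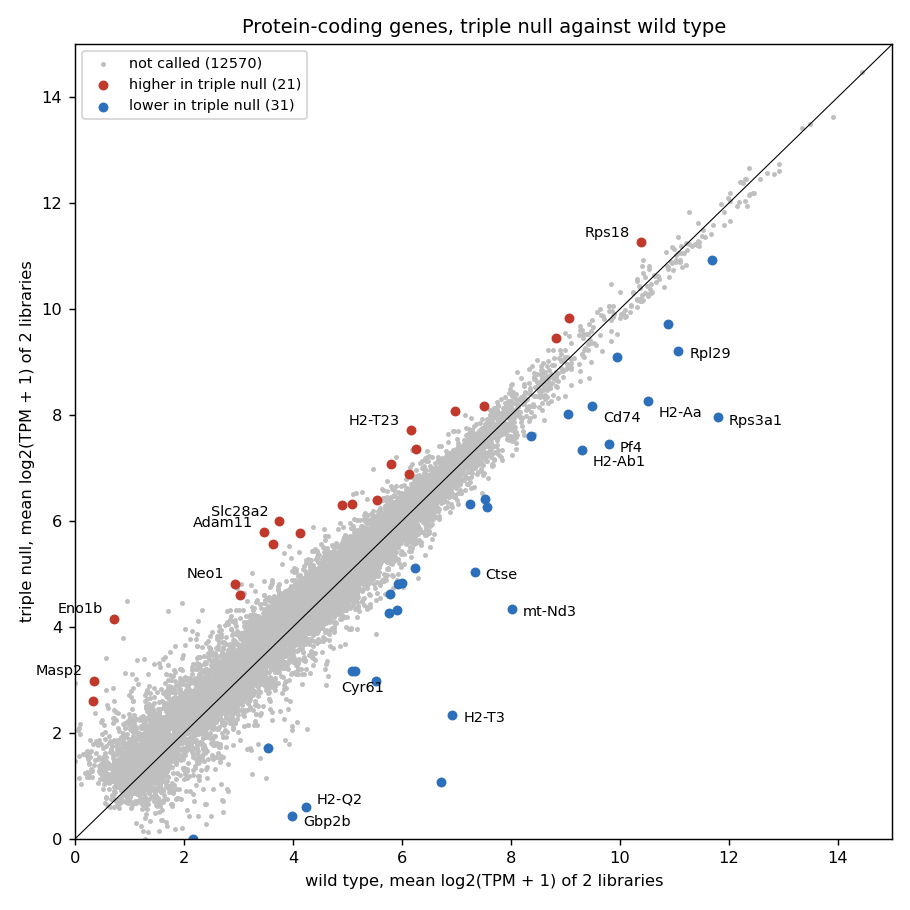
Mean log2(TPM + 1) of the 2 wild-type libraries (x axis) against that of the 2 triple null libraries (y axis) for the 12622 protein-coding genes. Red points are the 21 genes that passed the test as higher, blue points the 31 that passed as lower, grey points the rest, and the line marks equal values. H2-Aa, H2-Ab1, Pf4, Rps3a1 and Rpl29 are among the abundant genes lying well under the line.

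Of the MHC class II list, H2-Aa, H2-Ab1 and Cd74 fell. H2-Aa encodes the alpha chain and H2-Ab1 the beta chain of the I-A molecule, which presents peptides of extracellular proteins to CD4 T cells, and Cd74 encodes the invariant chain that escorts it. H2-Aa (chr17:34282744-34287823, mm10, from the GENCODE annotation) measured 1402 and 1507 TPM in wild type against 310 and 304 TPM in triple null, a log2 difference of -2.24 ± 0.13 (SE; limma adjusted p = 0.000121). H2-Ab1 (chr17:34257689-34269419) measured 567 and 693 TPM against 155 and 166 TPM, a log2 difference of -1.96 ± 0.15 (adjusted p = 0.000792). Cd74 measured 674 and 768 TPM against 284 and 289 TPM, a log2 difference of -1.33 ± 0.20 (adjusted p = 0.038). For each of the 3 genes the wild-type libraries stood far above both triple null libraries.

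Of the 14 class II genes listed, 13 were measured. Of these, 3 passed the test as lower and none as higher, against 0.355% lower and 0.224% higher of all genes tested. The median log2 difference of the 13 was -0.47, against 0.12 over all genes tested. The genes of the list that did not pass ran in both directions. Ciita, the coactivator that switches class II genes on, measured 4.28 and 5.41 TPM in wild type against 1.68 and 2.02 TPM in triple null (log2 difference -1.03, adjusted p = 0.362). By contrast, H2-Ob, a chain of the H2-O peptide-loading modulator, measured 2.25 and 2.48 against 9.05 and 12.2 TPM (1.78, adjusted p = 0.059). Their summed level was 2983 and 3323 TPM in wild type, 1080 and 1104 TPM in triple null, 614 and 602 TPM in Scribble null, and 786 and 911 TPM in Yap1 Taz null. H2-Aa in particular measured 127 and 105 TPM in Scribble null and 234 and 258 TPM in Yap1 Taz null. Set directly against Scribble null, the triple null level of H2-Aa was higher (log2 difference 1.40, adjusted p = 0.00474). This call ended without triple null 1 (adjusted p = 0.0671) or triple null 2 (0.0687). Against Yap1 Taz null it did not pass (0.32, adjusted p = 0.541). The call of Cd74 in triple null against wild type ended without any 1 of the wild-type, Scribble null or triple null libraries (adjusted p 0.0687 to 0.272).

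The promoter of H2-Aa is shown because class II genes are switched on through a conserved upstream module, whose X2 box resembles the cyclic AMP response element TGACGTCA and whose Y box holds CCAAT. The 150 bases before its RefSeq start (GRCm38.p6, chr17:34287824-34287973, minus strand) hold both, in capitals, the CCAAT on the opposite strand as ATTGG.
H2-Aa: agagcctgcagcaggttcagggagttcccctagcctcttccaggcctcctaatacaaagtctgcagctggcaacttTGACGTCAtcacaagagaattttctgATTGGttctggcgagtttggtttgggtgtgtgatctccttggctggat
TGACGTCA, searched on both strands, occurred in 1.36% of the 32851 RefSeq promoter windows of this length and CCAAT in 24.5%. Windows were found for 20 of the 31 genes that fell, of which 1 held TGACGTCA and 7 held CCAAT, and for 17 of the 21 that rose, of which none held TGACGTCA and 7 held CCAAT. Here and for the motifs below, a gene was counted when any of its windows held a match, while the percentages are over single windows. The counts and the percentages are therefore not like measures. These matches describe letters and say nothing of binding.

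Of the interferon-induced GTPases, which act against intracellular microbes on the membranes around them, Igtp, Iigp1, Gbp6 and Tgtp2 fell. Igtp (also known as Irgm3, chr11:58199556-58207591) measured 187 and 187 TPM in wild type against 76.2 and 75.5 TPM in triple null, a log2 difference of -1.29 ± 0.16 (SE; limma adjusted p = 0.015). Iigp1 measured 76.7 and 73.1 TPM against 33.4 and 33.8 TPM (-1.13 ± 0.16, adjusted p = 0.0281). In neither gene did the genotypes overlap, and the triple null libraries differed from each other by less than 1 TPM. Gbp6, a guanylate-binding protein, measured 51.0 and 54.8 TPM against 19.2 and 17 TPM (-1.50 ± 0.21, adjusted p = 0.0272), and the T-cell-specific GTPase Tgtp2 measured 333 and 324 TPM against 195 and 190 TPM (-0.77 ± 0.12, adjusted p = 0.0434). Tgtp2 and Gbp6 have near-identical copies (Tgtp1, and Gbp10 with Gm43302); summed over the copies, both still passed, at -0.73 (adjusted p = 0.0438) and -1.61 (adjusted p = 0.0134).

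Of the 16 GTPases measured, 4 passed as lower and none as higher, against 0.355% lower and 0.224% higher of all genes tested. A negative difference was seen in 15, whereas 64.2% of all protein-coding genes had a positive one. The median was -0.68 against 0.12 over all genes. Near-identical copies were found for 5 of the 16, so these are not fully separate measurements. Gvin1 alone was on the other side, with 47.0 and 60.5 TPM in wild type against 66.8 and 72.4 TPM in triple null (0.38, adjusted p = 0.561). The summed level of the GTPases was 1328 and 1342 TPM in wild type, 777 and 809 TPM in triple null, 504.3 and 538 TPM in Scribble null, and 577 and 614 TPM in Yap1 Taz null. None of the 4 genes that fell differed between triple null and either of the other null genotypes in limma. The smallest adjusted p was 0.0869, for Tgtp2 against Scribble null (0.75). The calls against wild type rested on all 4 compared libraries: leaving out any 1 of them gave adjusted p up to 0.155 for Igtp, 0.244 for Iigp1, 0.217 for Gbp6 and 0.3 for Tgtp2. Those of Iigp1, Gbp6 and Tgtp2 also ended without Yap1 Taz null 1 or Yap1 Taz null 2 (from 0.0558).

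The promoters of Igtp and Tgtp2 are shown because each holds, within 2 bases of each other, the letters of both interferon elements: the gamma-activated site, TTCNNNGAA, and the core of the interferon-stimulated response element, GAAA followed after 2 bases by a further GAAA (in capitals; N is any base). The 150 bases before the RefSeq start lie at chr11:58199406-58199555 on the plus strand for Igtp and at chr11:49064213-49064362 on the minus strand for Tgtp2 (GRCm38.p6).
Igtp: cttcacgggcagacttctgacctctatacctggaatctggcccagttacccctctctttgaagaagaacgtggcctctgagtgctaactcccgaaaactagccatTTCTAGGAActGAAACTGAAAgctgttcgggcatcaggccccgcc
Tgtp2: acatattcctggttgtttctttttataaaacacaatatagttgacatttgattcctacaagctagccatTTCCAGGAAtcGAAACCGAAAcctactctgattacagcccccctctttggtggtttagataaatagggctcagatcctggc
On either strand, TTCNNNGAA occurred in 4.09% of all windows and the double GAAA in 1.59%. Among the genes with a window, 2 of the 20 that fell and 3 of the 17 that rose held TTCNNNGAA, and 3 of the 20 and 1 of the 17 held the double GAAA.

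The wider interferon response did not move as one group. Over 38 other interferon-stimulated genes measured, 1 passed as lower, which is not reported here, and none as higher. Their median log2 difference was -0.05, against 0.12 over all genes, and 21 of the 38 had a negative difference. Irf1, a transcription factor induced by interferon, measured 78.0 and 90.9 TPM against 53.6 and 52.5 TPM without passing (-0.66, adjusted p = 0.14), and Bst2 (tetherin, which holds budding viruses on the cell) was on the other side, with 24.3 and 37.7 TPM against 49.5 and 46.4 TPM (0.64, adjusted p = 0.362). The summed level of the 38 genes overlapped between the genotypes, at 7447 and 7116 TPM in wild type against 7538 and 7118 TPM in triple null. Ifi44l, an interferon-induced gene outside that list, fell from 35.2 and 33.4 TPM to 8.51 and 7.39 TPM (-1.98 ± 0.23, adjusted p = 0.00847). It measured 1.29 and 1.09 TPM in Scribble null, below triple null (log2 difference of triple null from Scribble null 2.03, adjusted p = 0.0135), and 25.7 and 26.5 TPM in Yap1 Taz null (-1.60, adjusted p = 0.053). Leaving out any 1 of the 4 compared libraries ended the call of Ifi44l against wild type (adjusted p 0.072 to 0.127), which held at -2.70 in the authors' second table. Its call against Scribble null ended without either triple null library, either wild-type library or Scribble null 1 (0.057 to 0.15). The guanylate-binding gene Gbp2b fell from 15.3 and 14.4 TPM to 0.448 and 0.266 TPM (-3.55 ± 0.31, adjusted p = 0.00183). It was also low in Scribble null, at 0.249 and 0.436 TPM, and in Yap1 Taz null, at 0.353 and 0.209 TPM. A second table the authors deposited for the whole series gave -0.34 (adjusted p = 0.737) for Gbp2b, so the deposited sources differ on this gene.

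MHC class I genes, which present peptides from inside the cell to CD8 T cells, moved in both directions. H2-K1 (chr17:33996017-34000347), a classical heavy chain, measured 3423 and 3214 TPM in wild type against 1876 and 1989 TPM in triple null (-0.78 ± 0.10, limma adjusted p = 0.0137). H2-D1 (chr17:35262730-35267499), another classical heavy chain, measured 1813 and 1967 TPM against 871 and 816 TPM (-1.16 ± 0.13, adjusted p = 0.00726). In Scribble null H2-K1 measured 1849 and 1725 TPM and H2-D1 979 and 777 TPM, also below wild type. In Yap1 Taz null H2-K1 measured 1904 and 1820 TPM and H2-D1 867 and 806 TPM. The nonclassical H2-T23 (chr17:36029773-36032855), which encodes the Qa-1 molecule recognised by natural killer receptors, rose from 65.4 and 76.4 TPM to 195 and 223 TPM (1.55 ± 0.13, adjusted p = 0.0016). B2m, the light chain that the class I heavy chains share, measured 7696 and 7812 TPM against 6806 and 6762 TPM without passing (-0.19, adjusted p = 0.536).

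Among the 22 class I and peptide-loading genes measured, 3 passed as lower and 1 as higher, against 0.355% lower and 0.224% higher of all genes tested. Their median was -0.22 against 0.12 over all genes. The nonclassical H2-T3, the gene of the thymus leukemia antigen, fell from 140 and 104 TPM to 2.97 and 5.46 TPM (-4.58 ± 0.45, adjusted p = 0.00334). H2-Q2, outside the list, fell from 16.7 and 19.2 TPM to 0.541 and 0.473 TPM (-3.65 ± 0.33, adjusted p = 0.00224). H2-T3 and H2-Q2 were low in all 3 null genotypes: H2-Q2 lay between 0.268 and 0.940 TPM in Scribble null and Yap1 Taz null, and H2-T3 between 2.72 and 6.6 TPM. H2-T23 was high in all 3, at 171 and 169 TPM in Scribble null and 185 and 180 TPM in Yap1 Taz null. The class I genes of chromosome 17 are close relatives, so how the authors' counting divided reads among them can affect each value. H2-T3 lost its call without wild type 1 (adjusted p = 0.0736) and in the authors' second table (-6.05, adjusted p = 0.171), where H2-Q2 passed at -2.95. H2-K1 and H2-D1 lost their calls without any 1 of the 4 compared libraries (adjusted p 0.0834 to 0.189 and 0.0742 to 0.111). Chromosome 17, which carries the MHC, held 9 of the 52 genes that passed (17.3%) and 5.05% of all protein-coding genes tested here. Of the 22 genes with an H2 symbol, 7 passed, against 0.412% of all protein-coding genes.

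**Figure D2:**
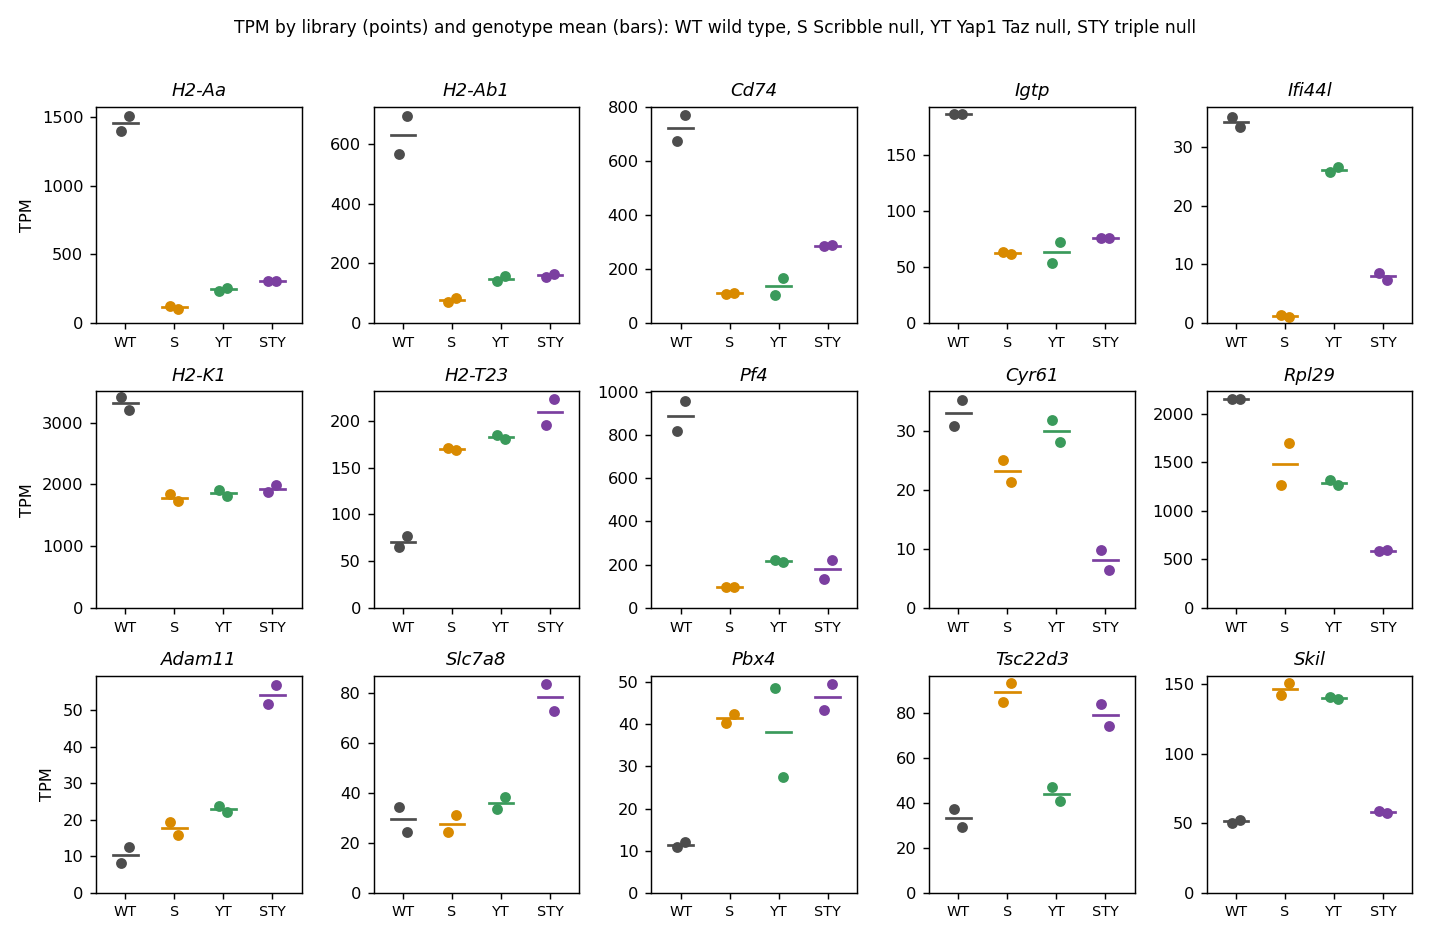
TPM (y axis, linear from 0) of 15 genes in each of the 8 libraries, as points, with a bar at the mean of the 2 libraries of a genotype: WT wild type, S Scribble null, YT Yap1 Taz null, STY triple null. The wild-type points of H2-Aa, H2-Ab1, Igtp and Pf4 lie above those of all 3 null genotypes, whereas the triple null points of Cyr61, Rpl29, Adam11 and Slc7a8 lie apart from the other 6 libraries.

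Pf4, platelet factor 4, a chemokine made by megakaryocytes and by stem cells primed toward them, fell. It measured 816 and 958 TPM in wild type against 135 and 222 TPM in triple null (chr5:90772435-90773383; log2 difference -2.34 ± 0.22, limma adjusted p = 0.00224). Scribble null, at 94.9 and 98.9 TPM, and Yap1 Taz null, at 222 and 211 TPM, were also below wild type, and neither differed from triple null (0.83, adjusted p = 0.291, and -0.32, adjusted p = 0.774). Pf4 was the only 1 of 21 megakaryocyte and platelet genes measured to pass; 12 of the 21 had a negative difference, and the median of the list was -0.11 against 0.12. Itgb3, a chain of the fibrinogen receptor, measured 18.6 and 28.5 TPM against 50.1 and 52.4 TPM (1.12, adjusted p = 0.0896), and its partner chain Itga2b 127 and 134 TPM against 100 and 104 TPM (-0.35, adjusted p = 0.357). In RNA of pooled sorted cells, fewer cells of one kind and less RNA per cell cannot be told apart. Ctse, the aspartic protease cathepsin E, fell from 150 and 172 TPM to 27.9 and 36.5 TPM (-2.29 ± 0.24, adjusted p = 0.00543). Its call ended without wild type 1, wild type 2 or triple null 1 (adjusted p 0.0654 to 0.077). Ctse was also below wild type in Scribble null, at 35.6 and 34.2 TPM, and in Yap1 Taz null, at 34.8 and 56.5 TPM.

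The stem cell genes Kit and Mecom were detected in all 4 libraries. Kit, the stem cell factor receptor, measured 268 and 281 TPM in wild type against 466 and 429 TPM in triple null (0.70, limma adjusted p = 0.113). Mecom, a transcription factor of stem cell self-renewal, measured 159 and 168 TPM against 231 and 222 TPM (0.47, adjusted p = 0.159). Both genes were higher in the 2 triple null libraries than in the 2 wild-type libraries without passing the test. Of 37 stem cell identity genes, 34 had a positive difference, as did 64.2% of all protein-coding genes. The median of the list was 0.24 against 0.12 over all genes, and 26 of the 37 lay above the latter. Of the list, 1 passed as higher. That gene, Sult1a1, a sulfotransferase used as a stem cell marker, rose from 13.5 and 20.4 TPM to 54.3 and 52.4 TPM (1.63 ± 0.21, adjusted p = 0.0156). Its call ended without wild type 1, triple null 1 or triple null 2 (adjusted p 0.0804 to 0.161).

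Markers of other blood cells were mostly low or unequal, and none outside the megakaryocyte list passed. The 10 measured myeloid progenitor and granulocyte genes of 22 listed summed to 359 and 381 TPM in wild type against 505.5 and 502.3 TPM in triple null, and the 9 monocyte, macrophage and dendritic genes of 23 listed to 249.5 and 293 TPM against 323 and 272 TPM. Itgam, the integrin CD11b, measured 2.00 and 0.922 TPM against 10.6 and 8.52 TPM (2.13, limma adjusted p = 0.0772), and Cd14, the endotoxin coreceptor of monocytes, 6.84 and 2.60 TPM against 0.409 and 0.0425 TPM (-2.13, adjusted p = 0.201). The 16 erythroid genes summed to 679 and 669 TPM against 628 and 684 TPM, and the 14 lymphoid genes to 198 and 184 TPM against 178 and 204 TPM. Jchain, the joining chain of secreted antibodies, measured 1.1 and 0.795 TPM in wild type against 8.0 and 54.7 TPM in triple null (adjusted p = 0.113), so the 2 triple null libraries differed from each other in this plasma cell gene. The summed levels of the lymphoid genes and of the monocyte, macrophage and dendritic genes overlapped between the genotypes. B cells and dendritic cells express class II genes strongly, and their part in the class II result was not tested. The 6 endothelial and stromal genes summed to 63.3 and 62.1 TPM against 102 and 97.6 TPM.

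Of the genes driven by Yap1 and TAZ, Cyr61 fell. Cyr61 (also Ccn1, chr3:145646976-145649981), a secreted matrix protein and a standard YAP target, measured 30.7 and 35.2 TPM in wild type against 9.85 and 6.5 TPM in triple null, a log2 difference of -1.91 ± 0.24 (limma adjusted p = 0.0143). The other null genotypes stayed near wild type, with 25 and 21.2 TPM in Scribble null and 31.9 and 28.1 TPM in Yap1 Taz null. The triple null libraries lay below all 6 others. Against Yap1 Taz null the log2 difference was -1.78 (adjusted p = 0.0459) and against Scribble null -1.41 (adjusted p = 0.0926, not passing). The difference of Cyr61 from wild type lost its call without wild type 1 (adjusted p = 0.115), wild type 2 (0.119) or triple null 2 (0.111), and that from Yap1 Taz null without any 1 of the 8 libraries (0.0787 to 0.318).

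The Cyr61 promoter is shown because the TEAD factors that carry Yap1 and TAZ bind the letters GGAATG. In the 150 bases before its RefSeq start (GRCm38.p6, chr3:145649986-145650135, minus strand) they occur once, on the opposite strand as CATTCC, in capitals.
Cyr61: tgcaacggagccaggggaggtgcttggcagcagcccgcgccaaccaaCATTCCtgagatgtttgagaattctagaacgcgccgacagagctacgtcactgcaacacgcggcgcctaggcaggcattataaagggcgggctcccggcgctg
GGAATG occurred on either strand in 7.59% of all windows. Among the genes with a window, 1 of the 20 that fell and 2 of the 17 that rose held it.

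Of the 18 targets of Yap1 and TAZ measured of 25 listed, Cyr61 alone passed, 10 had a positive difference and 8, Cyr61 included, a negative one, and the median was 0.20 against 0.12 over all genes. Wtip, an adaptor that restrains Lats kinases, measured 1.54 and 1.33 TPM in wild type against 5.79 and 5.38 TPM in triple null (1.44, limma adjusted p = 0.197). Anln, the cytokinesis protein anillin, measured 43.2 and 34.1 TPM against 19.9 and 24.8 TPM (-0.76, adjusted p = 0.289). None of the 26 Hippo cascade genes passed, with a median of 0.24; the kinase Lats2 measured 10.3 and 10.8 TPM against 14.4 and 20.3 TPM (0.66, adjusted p = 0.422). None of the 31 polarity genes passed either, with a median of 0.20 and a smallest adjusted p of 0.28, that of the Par complex gene Pard6a, at 37.5 and 15 TPM against 5.03 and 10.6 TPM.

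The genes that rose included surface proteins, transporters and regulators. Adam11, a catalytically inactive member of the ADAM family of membrane proteins, rose from 8.10 and 12.4 TPM in wild type to 51.5 and 56.8 TPM in triple null (chr11:102761439-102780262; log2 difference 2.32 ± 0.24, limma adjusted p = 0.00483). It was intermediate in Scribble null, at 19.4 and 15.8 TPM, and in Yap1 Taz null, at 23.8 and 22 TPM, and the triple null level did not pass against either (1.57, adjusted p = 0.0645, and 1.20, adjusted p = 0.176). Slc7a8, a neutral amino acid transporter, rose from 34.2 and 24.4 TPM to 83.5 and 72.6 TPM (1.40 ± 0.22, adjusted p = 0.0428), with 24.1 to 38.2 TPM in the other null genotypes. The triple null libraries were thus the highest of the 8 for both genes. Slc28a2, a nucleoside transporter, rose from 11 and 14.1 TPM to 69.5 and 56.5 TPM (2.24 ± 0.24, adjusted p = 0.00594), and summed with its copy Gm14085 it still passed (1.91, adjusted p = 0.00993). Neo1, the netrin and repulsive guidance molecule receptor neogenin, rose from 6.06 and 7.31 TPM to 26.7 and 27.6 TPM (1.88 ± 0.30, adjusted p = 0.0434).

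Tsc22d3, the glucocorticoid-induced leucine zipper, rose from 37.2 and 29.3 TPM to 83.7 and 74.2 TPM (1.23 ± 0.17, adjusted p = 0.0265) and was the only 1 of 23 quiescence and CDK inhibitor genes to pass; the median of that list was 0.09. Pbx4, a homeodomain partner of Hox proteins, rose from 10.9 and 12.0 TPM to 43.5 and 49.5 TPM (1.93 ± 0.26, adjusted p = 0.0212). Eps8, an actin regulator, rose from 7.65 and 6.68 TPM to 25.7 and 20.8 TPM (1.57 ± 0.21, adjusted p = 0.0218). Pbx4, Eps8 and Slc28a2 had similar levels in the 3 null genotypes, with 27.6 to 48.6 TPM of Pbx4, 18.2 to 19.8 TPM of Eps8 and 40.3 to 62.6 TPM of Slc28a2 in the Scribble null and Yap1 Taz null libraries. Smaller rises were seen in Bgn, the matrix proteoglycan biglycan (82.0 and 69.0 against 179 and 149 TPM), in Arhgdib, an inhibitor of nucleotide release by small GTPases (567 and 500.5 against 896 and 913 TPM), and in Chd9, a chromatin remodeler (448 and 453 against 680 and 723 TPM). Chd9 was highest in Yap1 Taz null, at 1181 and 1222 TPM, above triple null (log2 difference of triple null from Yap1 Taz null -0.78, adjusted p = 0.0459).

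The calls of these genes rested on few libraries. Leaving out either triple null library ended that of Adam11 (limma adjusted p = 0.0561 and 0.0814), and leaving out wild type 1 or triple null 1 that of Slc28a2 (0.0822 and 0.0806). Slc7a8 lost its call without any 1 of the 8 libraries (0.0528 to 0.32) and Neo1 without any but the Yap1 Taz null libraries (0.0808 to 0.313). Pbx4 lost it without any 1 of the 4 compared libraries (0.115 to 0.196). Eps8 (0.0558 to 0.229), Tsc22d3 (0.0558 to 0.246), Bgn (0.0866 to 0.278), Arhgdib (0.0978 to 0.283) and Chd9 (0.103 to 0.318) lost it without any but the Scribble null libraries. The call of Chd9 against Yap1 Taz null ended without any 1 of the wild-type, Yap1 Taz null or triple null libraries (0.0971 to 0.34). In the authors' second table Chd9 differed neither from wild type (0.25, adjusted p = 0.652) nor from Yap1 Taz null (0.01, adjusted p = 0.999). Masp2, a protease of the lectin complement pathway, was near 0 in wild type, at 0.377 and 0.162 TPM against 5.29 and 8.97 TPM (2.65 ± 0.37, adjusted p = 0.0254). This call ended without any 1 of the 4 compared libraries. Masp2 was also high in Yap1 Taz null, at 7.21 and 11.3 TPM, and near 0 in Scribble null, at 0.405 and 0.400 TPM. Cck, the hormone cholecystokinin, was at 2.82 and 4.22 TPM in wild type and listed at 0 in both triple null libraries (adjusted p = 0.04998). The call of Cck ended without any 1 of the 8 libraries. Its level was also near 0 in Scribble null, at 0.278 and 0 TPM, and in Yap1 Taz null, at 0 and 0.267 TPM.

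Several of the largest changes lay in genes with near-identical copies, where the authors' counting decides which copy a read is given to, and that rule is not given in the sources used here. Copies (at least 95% identical over at least 80% of the transcript) were found for 10 of the 52 genes. They were sought only for genes that passed, the targeted genes and list members. The share of all genes with copies is therefore unknown, and the 10 are not shown to be more than usual. Rps3a1 (chr3:86137940-86142702), a protein of the small ribosomal subunit, measured 3449 and 3654 TPM in wild type against 247 and 247 TPM in triple null (-3.84 ± 0.13, limma adjusted p = 4.43e-06). Its copies Rps3a2 and Rps3a3 averaged 9.94 and 33.5 TPM in wild type against 1560 and 808 TPM in triple null. Summed over the family the difference was -0.46 and did not pass (95% confidence interval -0.75 to -0.17, adjusted p = 0.228). Rps3a1 in the Scribble null libraries stayed at the wild-type level (3813 and 3160 TPM), and in Yap1 Taz null it was as low as in triple null (266 and 231 TPM).

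A stretch of the 3 coding sequences is shown because it makes plain how little separates the copies. Bases 609 to 668 of the 792 coding bases before the stop codon are given from the GENCODE transcripts, with the positions that differ among the copies in capitals.
Rps3a1: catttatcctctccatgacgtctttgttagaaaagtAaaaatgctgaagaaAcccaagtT
Rps3a2: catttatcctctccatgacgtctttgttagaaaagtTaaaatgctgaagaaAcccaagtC
Rps3a3: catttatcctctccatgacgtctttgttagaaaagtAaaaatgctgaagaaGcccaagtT
Over the whole coding sequence Rps3a2 differed from Rps3a1 at 4 bases and Rps3a3 at 9.

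Other families were likewise divided. Rps18 rose from 1379 and 1297 TPM to 2626 and 2281 TPM (0.87 ± 0.13, adjusted p = 0.0363). Gm10260 and Gm11361 averaged 458 and 395 TPM in wild type against 6.29 and 5.04 TPM in triple null, and the sum did not pass (0.16, adjusted p = 0.691). Eno1b rose from 0.602 and 0.666 TPM to 16.5 and 17.2 TPM (3.45 ± 0.29, adjusted p = 0.00139). Its level was alike in Yap1 Taz null, at 15.2 and 17.5 TPM, and low in Scribble null, at 0.522 and 0.208 TPM. Summed with the glycolytic enzyme Eno1, at 158 TPM in both wild-type libraries and 102 and 96.4 TPM in triple null, the difference was -0.45 and did not pass (adjusted p = 0.233). Amd2 rose from 0.0654 and 0.493 TPM to 5.21 and 5.00 TPM (adjusted p = 0.0287), and with Amd1 the sum did not pass (0.21, adjusted p = 0.689). Without each library in turn the calls of Rps3a1 and Eno1b held. Those of Rps18 ended without any but the Scribble null libraries (0.0856 to 0.317) and those of Amd2 without any 1 of the 8 (0.056 to 0.236). Of the 41 genes that passed among those set aside, 35 were pseudogenes. The share of pseudogenes among all genes set aside was not counted, so the 35 are not shown to be more than usual.

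**Figure D3:**
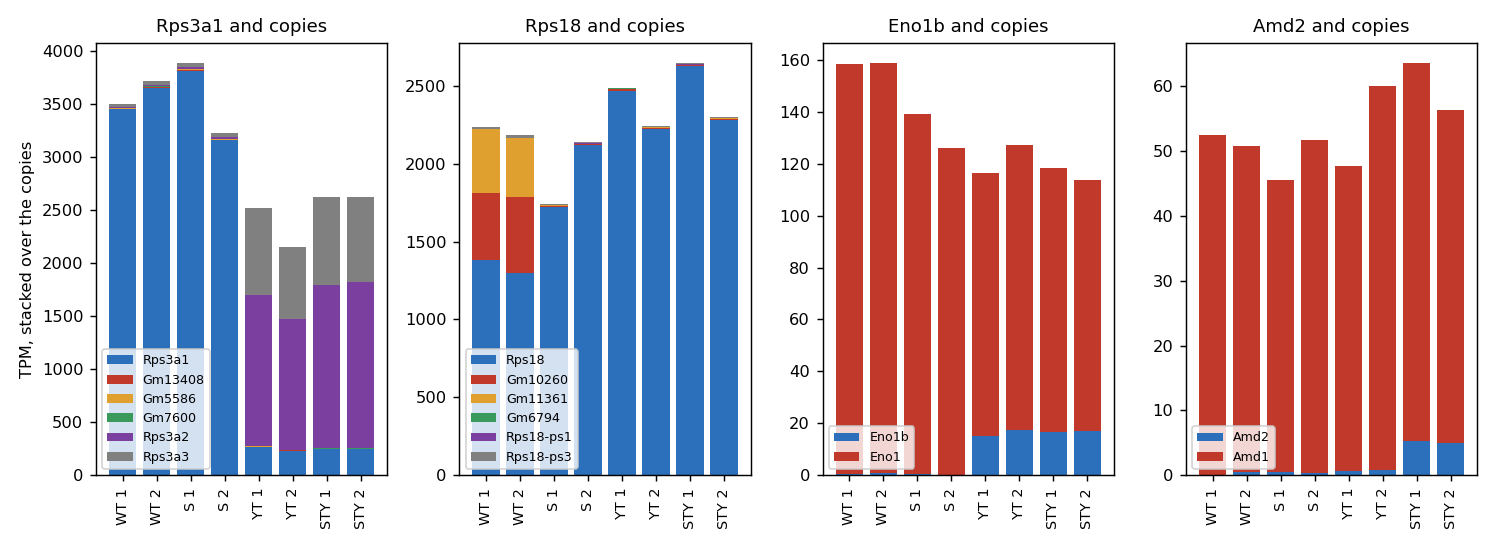
TPM of 4 gene families in each of the 8 libraries (x axis: WT wild type, S Scribble null, YT Yap1 Taz null, STY triple null), stacked over near-identical copies (y axis, linear from 0). In the triple null bars the Rps3a family is split among 3 copies, whereas in wild type Rps3a1 makes up nearly all of it; wild type alone shows Gm10260 and Gm11361 at high levels.

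Rpl29 (chr9:106429454-106431568), a protein of the large ribosomal subunit with no copy found by these limits, fell from 2155 and 2153 TPM to 588 and 594 TPM (-1.86 ± 0.14, limma adjusted p = 0.000638). Scribble null measured 1269 and 1698 TPM and Yap1 Taz null 1320 and 1263 TPM, and the triple null level was below both (-1.31, adjusted p = 0.0101, and -1.13, adjusted p = 0.0341). In the authors' second table these differences kept their calls and were larger, at -5.25 from wild type, -4.76 from Scribble null and -4.27 from Yap1 Taz null. Rpl29 was the only gene among the 52 whose triple null level passed against all 3 other genotypes. Its difference from wild type held whichever library was left out; that from Scribble null ended without triple null 1 (0.118) or triple null 2 (0.132), and that from Yap1 Taz null without any but the Scribble null libraries (0.089 to 0.318). Over the 89 ribosomal protein genes the median was -0.15, with 2 lower and 1 higher past the test; of these, Rps3a1 and Rps18 have copies.

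S100a11, a calcium-binding protein, fell from 948 and 1012 TPM to 531 and 560 TPM (-0.84 ± 0.10, limma adjusted p = 0.0102). It was at the wild-type level in Scribble null (1094 and 1064 TPM, above triple null at an adjusted p of 0.0086) and at 447 and 479 TPM in Yap1 Taz null. Without any 1 of the 4 compared libraries the call of S100a11 ended (0.0822 to 0.142), and that against Scribble null ended without either triple null library (0.101 and 0.118). The mitochondrial mRNA mt-Nd3, a subunit of respiratory complex I, fell from 261 and 257 TPM to 26.0 and 14.3 TPM (-3.68 ± 0.47, adjusted p = 0.0153). Summed with its nuclear copy Gm28438 it still passed (-2.82, adjusted p = 0.00137). In contrast, 11 of the 13 mitochondrially encoded mRNAs had a positive difference, with a median of 0.19. The call of mt-Nd3 alone ended without any 1 of the 4 compared libraries (0.0561 to 0.172). The histone gene Hist1h4n fell from 66.4 and 30.0 TPM to 7.61 and 6.27 TPM (-2.53 ± 0.37, adjusted p = 0.0281). Summed with its copy Hist1h4m it did not pass (-1.16, adjusted p = 0.363). Its call also ended without any 1 library but wild type 2. Hist1h4n was likewise low in Scribble null, at 5.22 and 4.56 TPM, and in Yap1 Taz null, at 12.2 and 10.1 TPM.

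The remaining 10 genes past the test fall outside the rule by which genes are named and are listed after their values were seen. Ass1, Dock11, Dph5, Prr5l, Slirp and Spc24 were lower, by -0.92 (Slirp) to -1.82 (Prr5l) on the log2 scale, and AC149090.1, Ivd, Stxbp4 and Ubl7 were higher, by 0.67 (Ubl7) to 1.1 (AC149090.1). Ass1, the arginine-making enzyme argininosuccinate synthase, measured 62.6 and 57.2 TPM in wild type against 28.6 and 25.9 TPM in triple null (limma adjusted p = 0.0419). Spc24, a subunit of the kinetochore, measured 72.9 and 47.5 TPM against 16.1 and 22.5 TPM (adjusted p = 0.0434). The calls ended without any 1 of the 4 compared libraries for all 10. Those of Ass1 (0.0875 to 0.309) and Slirp (0.0663 to 0.236) also ended without either Yap1 Taz null library. Those of Dock11, Ivd, Prr5l, Spc24 (0.066 to 0.303), Stxbp4 and Ubl7 ended without any 1 of the 8. The authors' second table gave 0.085 for Dph5, the opposite sign.

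Gene lists of the cell cycle, metabolism and stress held no further gene past the test. Of 34 mitosis and G2/M genes, 31 had a negative difference, with a median of -0.37 against 0.12 over all genes and a summed level of 1762 and 1808 TPM in wild type against 1278 and 1524 TPM in triple null. Cdca8, the chromosomal passenger borealin, measured 87.7 and 84.0 TPM against 49.3 and 54.9 TPM (-0.71, limma adjusted p = 0.154), and Ccnb1, the mitotic cyclin B1, 36.8 and 47.0 TPM against 21.3 and 25.4 TPM (-0.81, adjusted p = 0.185). Of 44 genes of G1/S and DNA replication 38 were negative, with a median of -0.25; Rrm2, which makes deoxynucleotides, measured 52.9 and 57.3 TPM against 28.6 and 32.3 TPM (-0.83, adjusted p = 0.162). Of 72 nuclear genes of oxidative phosphorylation 62 were negative, with a median of -0.22 and a summed level of 16906 and 16964 TPM against 14415 and 14753 TPM.

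None of the 28 immediate early genes passed, with a median of -0.10; Egr1, a zinc finger factor induced within minutes of a stimulus, measured 504.7 and 515 TPM against 753 and 747 TPM (0.56, limma adjusted p = 0.098), and Atf3, a stress-induced factor, 25.6 and 23.9 TPM against 9.11 and 14.4 TPM (-1.05, adjusted p = 0.198). The medians of heat shock and unfolded protein genes (0.04, 28 genes), glycolysis and hypoxia genes (0.00, 25 genes), TGF-beta and BMP signalling genes (0.28, 26 genes) and Bcl2 family genes (0.14, 11 genes) lay on both sides of that of all genes. Of these, Id1, an inhibitor of differentiation induced by BMP, measured 93.5 and 63.8 TPM against 36.0 and 23.6 TPM (-1.38, adjusted p = 0.159), and Vegfa, the vascular growth factor, 60.5 and 82.8 TPM against 42.2 and 35.5 TPM (-0.85, adjusted p = 0.159). The heat shock gene Hspa1a measured 235 and 218 TPM against 158 and 163 TPM (-0.50, adjusted p = 0.131).

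**Figure D4:**
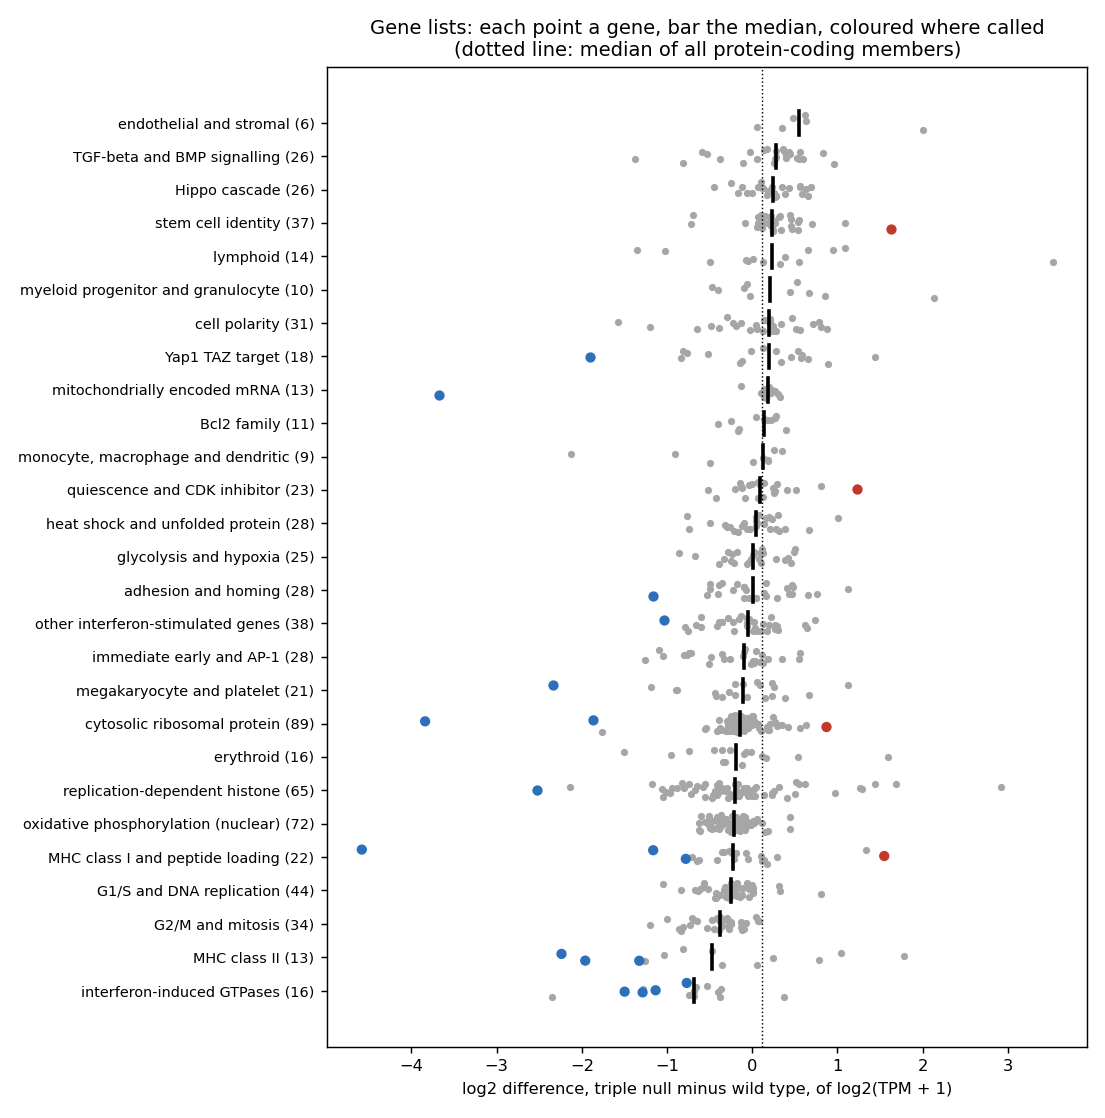
Log2 difference of each gene, triple null minus wild type (x axis), by gene list (y axis, with the number of genes measured). Grey points did not pass the test, blue points passed as lower and red as higher, black bars are list medians and the dotted line is the median of all protein-coding genes; the lists of interferon-induced GTPases and MHC class II genes have the lowest medians, -0.68 and -0.47.

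The libraries also allow the triple null to be set directly against the other null genotypes, whose labels share its deletions in part. In limma 34 genes of 16064 differed from Scribble null (0.212%), 18 higher in triple null (0.112%) and 16 lower (0.0996%). From Yap1 Taz null 29 differed (0.181%), 11 higher (0.0685%) and 18 lower (0.112%). Of the 52 genes that differed from wild type, 6 differed from Scribble null (Eno1b, H2-Aa, Ifi44l, Rpl29, Rps3a1 and S100a11) and 3 from Yap1 Taz null (Chd9, Cyr61 and Rpl29). These comparisons share the triple null libraries, and a p that misses the threshold does not show that levels are alike. Against Yap1 Taz null the sex of the animals cannot be told apart from genotype: the Y-linked Eif2s3y measured 62.1 and 61.0 TPM in triple null, 45.8 and 56.1 TPM in wild type, with 4.16 and 4.63 TPM in Yap1 Taz null.

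Some genes differed from the other nulls and not from wild type. Skil, a repressor of TGF-beta signalling chosen here after its values were seen, measured 50.1 and 52.5 TPM in wild type against 58.6 and 57.6 TPM in triple null (0.18, limma adjusted p = 0.642), but 142 and 151 TPM in Scribble null and 141 and 140 TPM in Yap1 Taz null. Triple null was lower than both (-1.32, adjusted p = 0.0062, and -1.26, adjusted p = 0.013). The call of Skil against Scribble null ended without triple null 1 (0.0703) or triple null 2 (0.0853), and that against Yap1 Taz null without either of those or either Yap1 Taz null library (0.113 to 0.137). The heat shock genes Hspa1a (280 and 280 TPM in Scribble null, 288 and 289 TPM in Yap1 Taz null) and Hsph1 (244 and 247 TPM in wild type, 557 and 565 TPM in Scribble null and 292 and 317 TPM in triple null) were also lower in triple null than in Scribble null (-0.80, adjusted p = 0.0347, and -0.88, adjusted p = 0.0212), and Hspa1a was lower than in Yap1 Taz null (-0.84, adjusted p = 0.0388). Vegfa was lower than in Yap1 Taz null, where it measured 102 and 120 TPM (-1.49, adjusted p = 0.0459). Leaving out any 1 library ended each of these calls of Hspa1a (0.0568 to 0.318), Hsph1 (0.0532 to 0.247) and Vegfa (0.0637 to 0.318).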

How the data were processed

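The authors deposited 1 table of TPM values per library, per the file headers, each with 33641 gene symbols. Per the submitters' processing notes, TopHat was used (no version stated) with the build mm10. The quantifier and its treatment of multiply mapping reads were not given in the sources used here. Each TPM value is a share of the library, keeps no depth and lowers other genes when one rises. Values were tested as log2(TPM + 1), which understates changes of low genes, with limma 3.58.1 in R 4.3.3: 1 mean per genotype over 8 libraries, a mean-variance trend, genes at 1 TPM or more in 2 of 8 libraries (16064), two-sided, Benjamini-Hochberg adjustment over all. The code was tested on simulated data. Copies were found with blastn 2.17.0 at 95% identity over 80% of the transcript. Gene types and positions came from GENCODE and promoters from RefSeq (GRCm38.p6); 164 genes were matched through RefSeq names.

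Named genes are the targeted genes, the 15 largest rises and falls that passed, the 10 most abundant that passed, and up to 4 of each list with the smallest p. Ciita, Gvin1 and B2m lie outside this rule and were chosen after their values were seen. The members and lists were chosen with earlier results of these data known. A second deposited table with linear values in an unnamed unit, per the file headers, served as an alternative. Some genes that the rule would name are not reported here.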

Additional observations from a re-analysis of the deposited data

How the results depend on the processing

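The count of protein-coding genes past the test, 52, was 39 to 58 with a pseudocount of 0.1 or 5 TPM, other filters or other scalings. It was 25 (7 higher and 18 lower; 58 over all genes) with only the 4 compared libraries in the fit, 28 without the mean-variance trend, and 32 (18 higher and 14 lower) in the second table; the count of those with groups that do not overlap was equal, 25, 28 and 32. Leaving out 1 library gave 13 to 45 protein-coding genes, 13 to 45 with groups that do not overlap, and 39 to 85 of all genes. With the experiment number of the labels as a replicate block, 32 protein-coding genes passed and 32 did so with no overlap. Over all genes, same-numbered libraries showed no strong shared deviation (correlations -0.053 to 0.026). These correlations cannot tell whether same-numbered libraries were prepared together, so pairing is not excluded. The causes were not tested.

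Values that changed sign were those of Scrib (-0.19 to 0.67) and Wwtr1 (-0.13 to 0.59), each over the fits that leave out 1 library, the lowest without triple null 1, Yap1 with quantile normalization (-0.070), Eno1b summed over its copies (-0.45), Chd9 against Yap1 Taz null in the second table (0.0064) and Dph5 against wild type in that table (0.085). A pseudocount of 0.1 or 5 TPM moved the differences of low genes, at 5 TPM by over 1.5 times. Gbp2b went to -5.06 or -1.89, H2-Q2 to -4.89 or -2.06 and Eno1b to 4.53 or 1.95. Masp2 went to 4.31 or 1.19 (not passing at 5 TPM, adjusted p = 0.0636) and Amd2 to 4.05 (not passing, adjusted p = 0.113) or 0.94. The genes that passed in all 18 alternatives, the sums over copies aside, were Eno1b, H2-Aa, H2-Ab1, H2-Q2, H2-T23, Pf4, Rpl29 and Rps3a1. With 2 libraries per genotype and no read depth, differences that did not pass are not shown to be absent.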
